A study of Homo sapiens with 5 samples.

Results

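ATF3 peaks that hold an exact ATF/CRE core were taken from the ChIP-seq peak list of HCT116 cells treated with camptothecin (CPT). The core is the palindrome of 8 bases TGACGTCA, which reads the same on both strands. A peak was a member when the hg19 sequence between its start and its end held this core, and 989 of the 70128 peaks on chromosomes 1 to 22 and X did so (1.41%, 95% Wilson confidence interval 1.33% to 1.5%). The choice used the letters of the reference sequence and no measured level.

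Binding of ATF3 and p53 was mapped in HCT116, a human colon cancer cell line, with 1 library per condition and no replicates. The 3 ATF3 libraries came from ATF3-WT cells given CPT at 1.5 μM for 4 h (ATF3-CPT), ATF3-WT cells given DMSO (ATF3-Ctrl) and ATF3-KO cells given DMSO (ATF3-KO). All cells were crosslinked with di(N-succinimidyl) glutarate and then formaldehyde before precipitation. The ATF3-KO cells are 1 clone of a line edited with an AAV vector in exon 3 of ATF3, and ATF3-KO differs from ATF3-CPT in genotype and in treatment at once, so that these cannot be told apart in that comparison. With 1 library a condition no difference between conditions could be tested against replicate spread, and intervals below cover counting error only.

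ATF3 belongs to the bZIP transcription factors, which bind DNA as dimers through a basic region next to a leucine zipper. The ATF/CRE element is the site of the ATF/CREB proteins and is known from promoters of genes induced by cyclic AMP, whereas the AP-1 element, 1 base shorter in its centre, is the site of Fos and Jun dimers and is common in enhancers. CPT traps topoisomerase I on DNA and causes DNA damage, and ATF3 is a gene of the stress response.

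The libraries held 15457013 tags (ATF3-CPT), 12947516 tags (ATF3-Ctrl) and 12820520 tags (ATF3-KO), of which 12.76%, 5.60% and 0.56% lay in peaks. Peaks were called separately, with a score of at least 9 tags in the first pair of lists and 11 tags in ATF3-KO. Calls also required an excess over the local tags, so an absent peak means only that a site did not meet these limits, not that it had no tags. The score counts at most 1 tag per position, and the normalized tag count of a listed peak can lie below the worth of that many tags. Peaks were 124 bp wide in ATF3-CPT, 126 bp wide in ATF3-Ctrl and 198 bp wide in ATF3-KO, so that tags of ATF3-KO were counted over a wider window. Levels are the deposited normalized tag counts, which scale each library to 10000000 tags and make a single tag count as 0.647, 0.772 and 0.78 in the order above.

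The sequences of high, induced and persistent members show the same 8 letters in different surroundings. Each line gives 10 bases on either side of the core on the plus strand of hg19, with the core in capitals. CTU2, MAPKAPK5 and RBM42 had a listed peak in all 3 ATF3 libraries, and SCG2 and HOXC10 were among the 5 largest gains after CPT. CBX8 and CREM were listed only in ATF3-CPT, and VGF, CCNA2, PPM1D and PPP1R15A belong to gene groups described below.
CTU2, chr16:88772806-88772833: tgcgccgcgcTGACGTCAtcgtagggcg
MAPKAPK5, chr12:112279765-112279792: tccgggcctaTGACGTCAttagcgcagc
RBM42, chr19:36119904-36119931: cccgaatgtaTGACGTCAtgcgccagcg
SCG2, chr2:224467131-224467158: actgccacacTGACGTCAccgggttcag
HOXC10, chr12:54378808-54378835: ttgaccccgcTGACGTCAcggccgtctg
CBX8, chr17:77770872-77770899: actctcccgcTGACGTCAgttctcctcc
CREM, chr10:35484770-35484797: agctgcacatTGACGTCAgctccgagtc
VGF, chr7:100808912-100808939: cccgccccatTGACGTCAatgttcattc
CCNA2, chr4:122745102-122745129: ctcgcggcctTGACGTCAttcaaggcga
PPM1D, chr17:58677483-58677510: gagagccgagTGACGTCAgcgggggaga
PPP1R15A, chr19:49375610-49375637: cctctcttcgTGACGTCAgcacgccggg

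Whole peaks of 125 bases are shown where the arrangement of the letters mattered and no annotated exon of a protein-coding gene was touched. The DUSP8 peak and the peak between ISG15 and HES4 held the core at 2 places. The peak upstream of ATF3 itself held the core together with the AP-1 element tgagtca near its left end. The peak 55001 bp from the TSS of CEP170 held 4 cores, the most of any member.
DUSP8, chr11:1593505-1593629: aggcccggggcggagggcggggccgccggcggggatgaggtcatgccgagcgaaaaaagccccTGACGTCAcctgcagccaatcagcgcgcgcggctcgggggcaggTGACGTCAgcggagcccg
ISG15, chr1:936211-936335: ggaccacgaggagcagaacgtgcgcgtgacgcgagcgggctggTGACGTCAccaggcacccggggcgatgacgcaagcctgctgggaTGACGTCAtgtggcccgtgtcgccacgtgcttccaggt
ATF3, chr1:212732344-212732468: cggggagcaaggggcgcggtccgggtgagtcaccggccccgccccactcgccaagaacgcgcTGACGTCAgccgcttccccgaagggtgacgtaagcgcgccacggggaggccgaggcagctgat
CEP170, chr1:243265060-243265184: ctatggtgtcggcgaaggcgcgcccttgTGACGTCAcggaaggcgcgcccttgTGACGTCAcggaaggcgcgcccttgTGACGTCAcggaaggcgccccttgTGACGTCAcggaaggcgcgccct

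The core lay close to the middle of the peaks, although membership allowed it anywhere between start and end. Of the 989 peaks, 960 held 1 core, 27 held 2, 1 held 3 and 1 held 4, which made 1021 cores. The distance from the core centre to the peak centre had a median of 12.5 bp, and 77.9% of cores lay within 25 bp. In windows of the same width 1000 bp to either side of all ATF3-CPT peaks the core was found in 86 of 140256 (0.0613%), and the ratio of peaks to windows was 23. The same ratio was 25 in ATF3-Ctrl, where 650 of 33571 peaks held the core (1.94%), and 130 in ATF3-KO, where 130 of 2098 peaks held it (6.2%), the last resting on 2 side windows with a core.

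**Figure D1:**
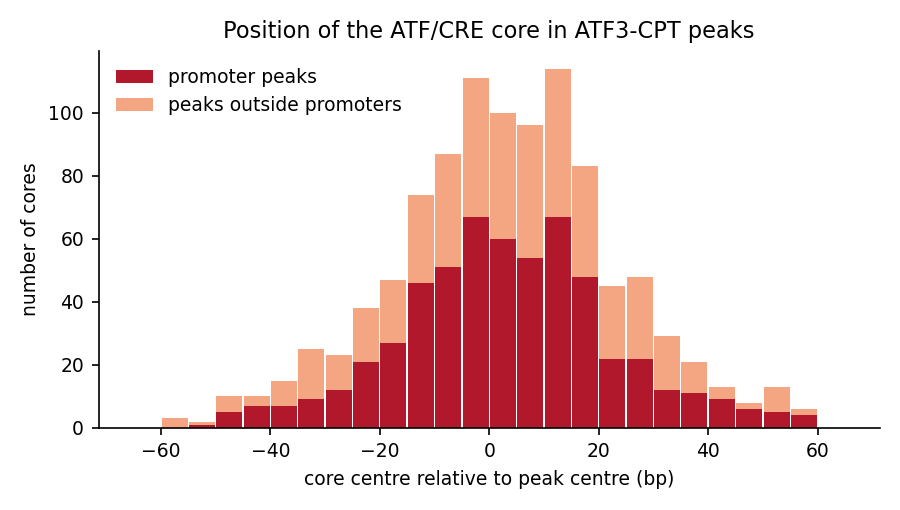
Number of cores (y axis) by the distance of the core centre from the peak centre in bp (x axis, bins of 5 bp) for the 1021 cores, with promoter peaks in dark red and peaks outside promoters stacked above in light red. Most cores lie near 0, with 77.9% within 25 bp.

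Across chromosomes 1 to 22 and X the exact core occurred 10314 times, and 1021 of these occurrences (9.9%, interval 9.34% to 10.5%) lay in an ATF3-CPT peak. The share was 6.56% for ATF3-Ctrl and 1.38% for ATF3-KO peaks. Promoters were the 2 kb on both sides of TSS of protein-coding genes, and 573 of the cores there (49.8%) were in an ATF3-CPT peak, 40.8% in an ATF3-Ctrl peak and 9.9% in an ATF3-KO peak. Outside promoters these shares were 4.89%, 2.26% and 0.306% of 9163 cores. A core in a promoter was therefore in an ATF3-CPT peak more often than a core elsewhere, with intervals that did not overlap (46.9% to 52.7% against 4.47% to 5.35%).

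Every single base change of the core had a smaller share of its occurrences in ATF3-CPT peaks. Positions are counted from 1 at the 5′ end of the core, and since the core is a palindrome 12 changes cover all of them. The changes with the highest shares were T1C, CGACGTCA, with 6.04% of 3261 occurrences, A3G with 2.93% and C4T, TGATGTCA, with 2.86%. The lowest was C4A, TGAAGTCA, with 0.599% of 195012 occurrences. This order is over all places and did not hold within them. In promoters T1C with 26.1% and G2T with 25.7% were the highest, and C4G with 2.25% the lowest. Outside promoters C4T, with 2.59%, stood above T1C, with 2.33%. The AP-1 element, TGACTCA or TGAGTCA, had 6.86% of its 456218 occurrences in ATF3-CPT peaks and 0.0243% in ATF3-KO peaks, while T1C had 1.07% in ATF3-KO peaks. The order of the AP-1 element and the exact core in ATF3-CPT turned with place. In promoters the AP-1 element had 16.4% of its occurrences in ATF3-CPT peaks, below the 49.8% of the exact core, whereas outside promoters it had 6.54% (interval 6.47% to 6.62%), above the 4.89% of the exact core. In ATF3-KO it was below the exact core in both places, with 0.187% in promoters and 0.019% outside. These occurrences were not filtered for how uniquely reads align there.

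The base next to the core went with binding. Each core has 2 ends, and the first base beyond each end was read outward from the core. Among all genomic cores, ends followed by C lay in an ATF3-CPT peak in 20.3% (interval 19.1% to 21.5%) of 4280 cases, those followed by T in 12%, those followed by G in 6.6% and those followed by A in 2.93% (2.45% to 3.5%) of 4061 cases. The order was the same in promoters, where the shares were 63.8% for C, 53.5% for T, 41.7% for G and 22% for A, and outside them, where they were 9.13%, 7.78%, 2.96% and 1.48%. The neighbours C and T had overlapping intervals outside promoters (8.21% to 10.1% and 7.0% to 8.63%). The sequences above show such ends, for example the c after the core in SCG2 and the t in CTU2. The VGF core, with an a after it, is among the 102 single-core peaks with A at an end. Both ends of a core share its location, so the ends are not independent, and the part of base composition in these shares was not tested.

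**Figure D2:**
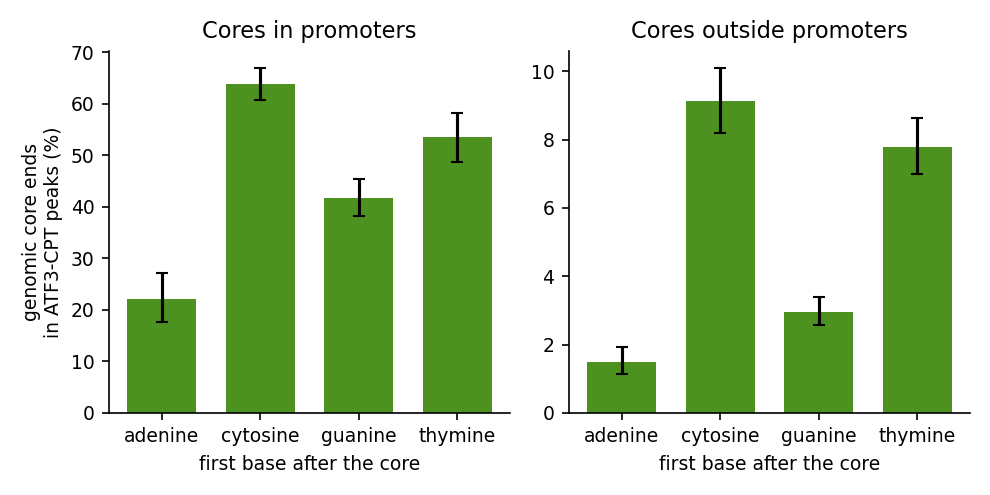
Percent of genomic core ends that lay in an ATF3-CPT peak (y axis) by the first base after the core (x axis), in promoters on the left and outside promoters on the right, with 95% Wilson intervals as error bars. The y axes differ: cytosine stands at 63.8% and adenine at 22% in promoters, against 9.13% and 1.48% outside.

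Among the 960 peaks with a single core, 471 (49.1%) had C or T at both ends, and 112 (11.7%) had neither at any end. Their median levels in ATF3-CPT were 23.3 (quartiles 9.7 and 46.2) and 21.3 (quartiles 11 and 39.0), which overlapped widely. In promoters the medians were 32.3 with C or T at both ends, 29.8 at 1 end and 25.2 at neither, whereas outside promoters they ran the other way, with 11, 15.5 and 20.1. Those with A at an end had a median of 18.5 over all places. In promoters their median was 19.4, and 60.4% of them (interval 46.9% to 72.4%) were found in ATF3-Ctrl, against 84.1% (79.1% to 88.2%) of promoter members with C or T at both ends.

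Members had higher levels than the other ATF3-CPT peaks. The median normalized tag count was 23.9 (quartiles 11 and 44.6, lowest 4.5, highest 243.9), against 12.9 for the 28414 peaks with an AP-1 core and no ATF/CRE core, 11.6 for the 6572 peaks with no more than the first 5 letters, TGACG, on either strand (the partial site below), and 11 for all peaks. Members were not at the very top of the list, since the highest stood at rank 42. They were 51 of the highest 1000 peaks (5.1%) and 394 of the highest 10000 (3.94%), against 1.41% of all. A peak with 2 or more cores had a median of 48.5 (29 peaks) and a peak with 1 core a median of 23.3. Of the deposited values beside the level, the fraction of a peak's tags lying near its centre had a median of 0.846 in members and 0.81 in all peaks, and the GC content of the sequence had medians of 61.6% and 49.6%.

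Most members sat at promoters. The centre lay within 2 kb of a TSS in 555 of 989 peaks (56.1%, interval 53% to 59.2%), against 20.3% of all ATF3-CPT peaks, 51.9% of the peaks with only a partial site and 7.89% of those with only an AP-1 core. The centre was in the 200 bp upstream of the TSS in 36.3% of members, 8.3% of all peaks and 1.3% of AP-1 peaks. The median distance to the TSS was 577 bp for members and 32258 bp for AP-1 peaks. Of the 434 members outside promoters, 22 were centred in exons, 151 in introns and 261 between genes.

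**Figure D3:**
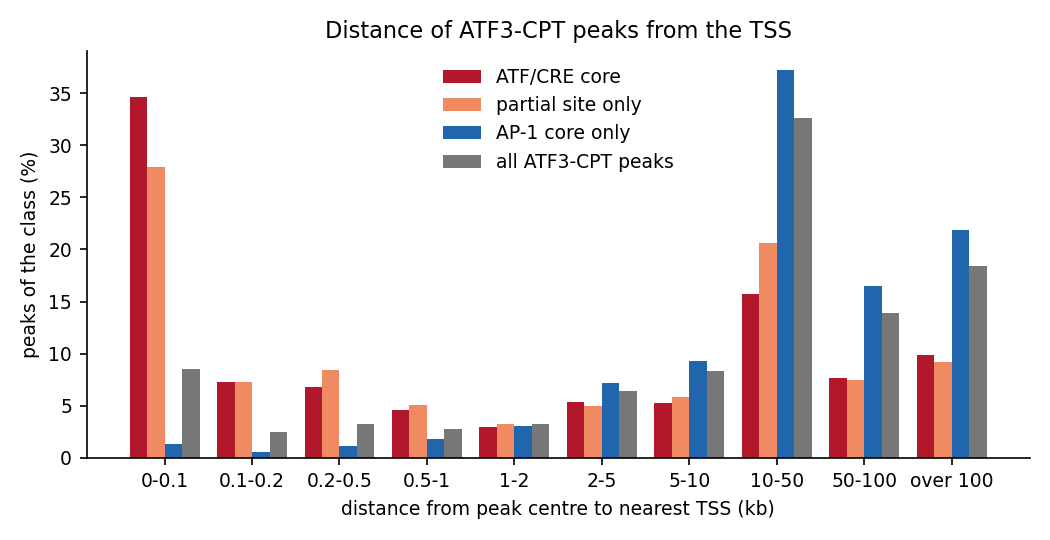
Percent of peaks of each class (y axis) by distance from the peak centre to the closest protein-coding TSS in kb (x axis), for peaks with the ATF/CRE core, with only the partial site, with only the AP-1 core and for all ATF3-CPT peaks. In the first 0.1 kb stand 34.6% of core peaks, 27.9% of partial site peaks and 1.32% of AP-1 peaks.

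The place of a member went with its level. In ATF3-CPT the median was 31.1 in promoters (quartiles 18.1 and 51.8) and 12.9 outside (7.8 and 31.6), whereas both medians were 11 over all peaks. The promoter share of members was 24.5% of the 216 peaks under 10 and 70.4% of the 287 peaks of 40 and over, while over all peaks the first of these classes had 6514 in promoters of 32615 and the last 18.1%.

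The 66 members that also held an AP-1 core looked different. Of these, 5 lay in promoters (7.58%, interval 3.28% to 16.5%), against 59.6% of the 923 members without it. Their median level was 28.1, not far from 23.3 in the others. None of the 66 was found in ATF3-KO, which allows a share of up to 5.5%, against 137 of the 923. Since most of the 66 lay outside promoters, the nearer comparison is with all members there, of which 4.61% (20 of 434) were found in ATF3-KO, a share inside that limit. The highest were in an intron of MRPL33, a gene of the mitochondrial ribosome, with levels of 150.1 after CPT and 57.2 before, and 6270 bp upstream of ATF3, with 146.2 and 39.4.

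The first question on treatment was how many members were already in place before CPT. Of the 989, 653 (66.0%, interval 63.0% to 68.9%) overlapped an ATF3-Ctrl peak by at least 1 base, and 38.3% of all ATF3-CPT peaks did so. The share was 52.6% for partial site peaks and 37.1% for AP-1 peaks. Members in promoters were found in ATF3-Ctrl in 82.3% and those outside in 45.2%, against 49.2% and 35.5% over all peaks.

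Since members had higher levels, the comparison was repeated within classes of level. Under 10 in ATF3-CPT, 11.6% of members and 13.4% of all peaks were found in ATF3-Ctrl. From 10 to 20 there were 106 of 212 members and 37.2% of all, from 20 to 40 the shares were 86.1% and 77.4%, and from 40 up they were 99.7% (286 of 287) and 97.2%. Among AP-1 peaks the shares in these classes were 3.9%, 25.3%, 74.7% and 97.5%. Much of the distance between 66.0% and 38.3% was thus seen between levels, and in the lowest class members were not above all peaks.

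The 336 members with no ATF3-Ctrl peak were low, with a median of 9.1 in ATF3-CPT, and 29.2% of them lay in promoters. Over all ATF3-CPT peaks with no ATF3-Ctrl peak the median was 8.4 and the promoter share 16.7%, so a low level was common to such peaks. The highest was at CBX8, a Polycomb chromobox gene, with 42.7 in ATF3-CPT, 5 bp from the TSS. It was followed by a site 69127 bp from CD82, a tetraspanin gene, with 38.8, and by MBNL2, a splicing regulator, with 34.3. TMEM9 and a site 73266 bp from FGF18, a fibroblast growth factor gene, both stood at 33.6. None of these was listed in ATF3-Ctrl or in ATF3-KO.

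**Figure D4:**
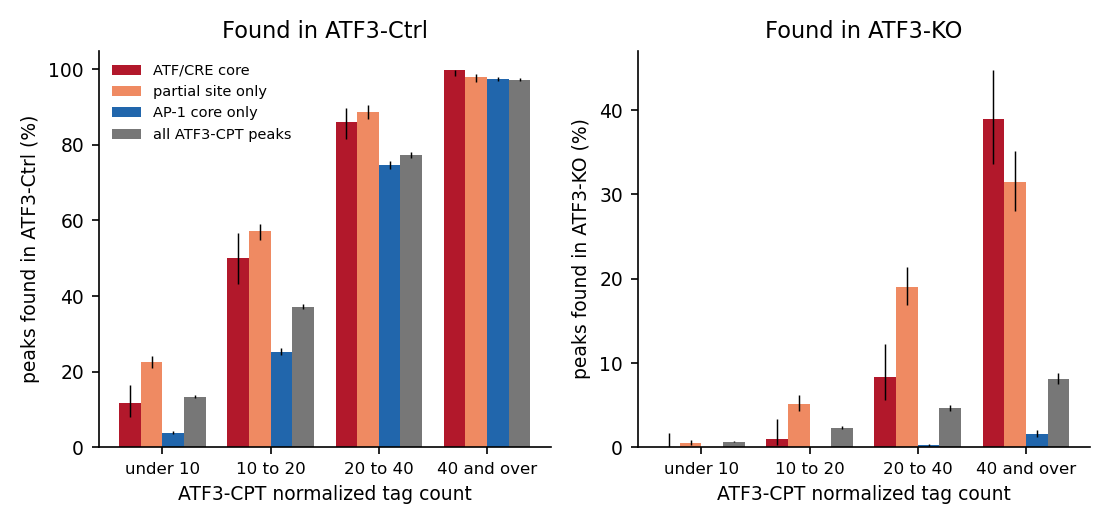
Percent of ATF3-CPT peaks found in ATF3-Ctrl (left) and in ATF3-KO (right) on the y axes, by class of normalized tag count in ATF3-CPT on the x axis, with 95% Wilson intervals. From 40 up, 99.7% of core peaks are found in ATF3-Ctrl and 39.0% in ATF3-KO, against 97.5% and 1.57% of AP-1 peaks.

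Shared members had more tags after CPT. The log2 ratio of ATF3-CPT to ATF3-Ctrl had a median of 0.98 (quartiles 0.45 and 1.45) over the 653 sites, and 54 of them (8.27%) were lower after CPT, against 19% of all shared sites and 3.28% of AP-1 peaks. Over all 26826 shared sites the median was 0.86, so that members were higher by 0.13 relative to it, and AP-1 peaks, with a median of 1.26, by 0.41. At least 2-fold more tags were seen at 322 members (49.3%, interval 45.5% to 53.1%), against 44% of all shared sites, 67.8% of AP-1 peaks and 24.9% of partial site peaks. None was 2-fold lower or more, which allows a share of up to 0.585%, against 2.04% of all. Every shared site has an ATF3-CPT peak, so a site that fell below the calling limits after CPT could not be counted. Of the 650 ATF3-Ctrl peaks with the core, 97.5% were found in ATF3-CPT, against 79.9% of all ATF3-Ctrl peaks. The share was 97.2% for ATF3-Ctrl peaks with only an AP-1 core, near that of the core, and 82.0% for those with only a partial site. Each of these shares is of ATF3-Ctrl peaks. The 16 peaks with the core that were not found had a median of 9.3 in ATF3-Ctrl, the highest 47.1. The share at least 2-fold higher was near that of all shared sites, and after scaling to the median of all shared sites it was 6.13% of members and 8.08% of all, with 5.67% of members and 14.9% of all at least 2-fold lower.

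The change differed by place as well. Members outside promoters had a median log2 ratio of 1.28 (196 sites) and those in promoters 0.90 (457 sites), against 1.01 and 0.45 over all shared sites. At least 2-fold more tags were seen at 63.3% and 43.3% of them, against 50.4% and 26.1% of all shared sites. The members with an AP-1 core in addition had a median of 1.56 (46 sites) and all of these 46 were higher after CPT, the lowest by 0.10, while the 607 without it had a median of 0.93. Since most members with an AP-1 core lay outside promoters, the nearer comparisons are 1.28 for all members there and 1.26 for AP-1 peaks there.

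**Figure D5:**
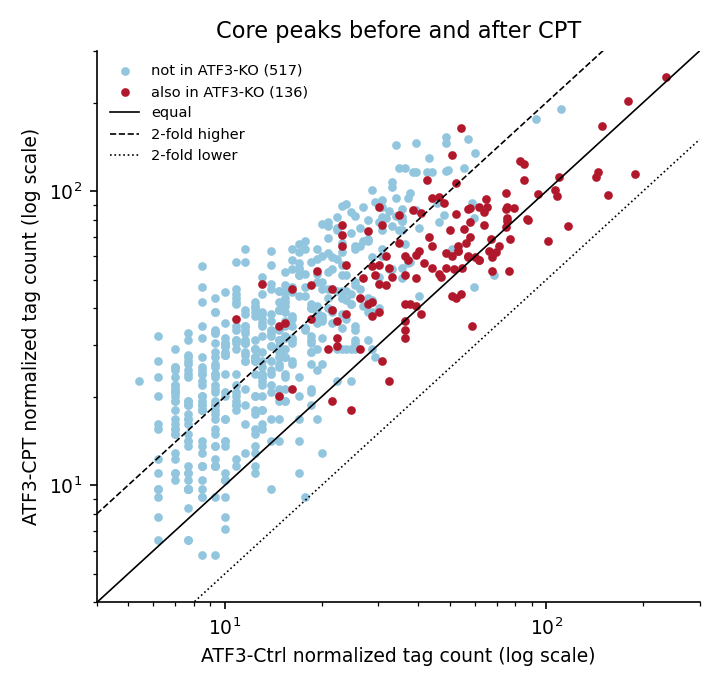
Normalized tag count in ATF3-CPT (y axis) against ATF3-Ctrl (x axis), both on log scales, for the 653 members found in both lists, with the 136 also found in ATF3-KO in red and the other 517 in blue. Lines mark equal levels and a 2-fold difference: the red points lie at high ATF3-Ctrl levels near the line of equal levels, and no point lies below the line of 2-fold lower.

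Among single members, those with the largest gains went from low levels in ATF3-Ctrl to above the median of members in ATF3-CPT, 23.9. At HOXC10, a homeobox gene, the normalized tag count was 8.5 in ATF3-Ctrl and 55.6 in ATF3-CPT, a ratio of 6.54 (95% exact counting interval 3.48 to 13.6). The core stood in a promoter peak 117 bp upstream of the TSS. COLGALT1, which encodes a collagen galactosyltransferase, had 8.5 and 47.2, a ratio of 5.55. SCG2, the gene of secretogranin II, a protein of neuroendocrine secretory granules, had 11.6 and 63.4, a ratio of 5.47 (3.16 to 10.1). YWHAH, a 14-3-3 gene, had 10.8 and 57.6, and PPA1, an inorganic pyrophosphatase gene, 6.2 and 32.3. All 5 lay within 1 kb of the TSS and none was in ATF3-KO.

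In unscaled ratios the largest falls, among sites still listed after CPT, were small beside these gains. The median log2 change of all shared sites was itself 0.86. After scaling to it, 6.13% of members were at least 2-fold higher and 5.67% at least 2-fold lower, so gains and falls were nearly as frequent. POLB, the gene of the base excision repair polymerase, had 17.8 in ATF3-Ctrl and 9.1 in ATF3-CPT, a ratio of 0.511 whose counting interval reached 1 (0.243 to 1.03). AASDH had 58.7 and 34.9 (ratio 0.595, interval 0.412 to 0.855) and RBM42, an RNA-binding protein gene, 155.2 and 97.0 (0.625, 0.503 to 0.776). A site 132563 bp from FABP2 had 189.2 and 113.9 (0.602, 0.493 to 0.733), and a site 661406 bp from FRG1 had 9.3 and 5.8, with an interval of 0.234 to 1.62. AASDH, RBM42 and the FABP2 site were in ATF3-KO too, with 20.3, 36.7 and 46.8.

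The highest members were at or near genes of varied function. CTU2, a gene of tRNA thiolation, was the highest, with levels of 243.9 (ATF3-CPT), 236.3 (ATF3-Ctrl) and 83.5 (ATF3-KO), and its promoter is shared with RNF166. MAPKAPK5, a kinase of the p38 pathway, had 203.1, 179.2 and 81.1. NOC4L, a gene of ribosome biogenesis whose start is shared with DDX51, had 166.9, 149.1 and 70.2. The ratios of ATF3-CPT to ATF3-Ctrl at these 3 promoters were 1.03, 1.13 and 1.12, and each interval included 1. RPS29, a ribosomal protein gene, had 146.2 and 48.7 (ratio 3.0, interval 2.26 to 4.04) and was not in ATF3-KO. A peak 245 bp from 1 annotated TSS of ISG15, an interferon-induced ubiquitin-like gene, and within 2 kb of HES4 had 190.2 and 111.2 (ratio 1.71). Any basic transcript of a gene could supply this TSS. A site 24402 bp from ELF3, an epithelial ETS factor gene, had 176.0 and 92.7, and SPATA2L 153.3 and 48.7. None of these 3 was in ATF3-KO. Some of the highest promoters thus had nearly equal levels before and after CPT, and others had 3 times the tags after it.

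The site upstream of ATF3 lay between genes, 6270 bp from its TSS. Its level was 146.2 after CPT and 39.4 in ATF3-Ctrl, a ratio of 3.71 (interval 2.73 to 5.13), and was not listed in ATF3-KO. Its sequence above shows the AP-1 element, the ATF/CRE core and, further right, the partial site letters tgacgta.

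The last comparison asked which members were listed in the ATF3-KO cells. Of the 989, 137 (13.9%, interval 11.8% to 16.1%) overlapped an ATF3-KO peak, against 2.48% of all ATF3-CPT peaks. The share was 8.26% for partial site peaks and 0.278% (79 of 28414) for AP-1 peaks. Among peaks shared with ATF3-Ctrl it was 136 of 653 for members (20.8%), against 5.87% over all such peaks and 0.693% for AP-1 peaks. Members made up 7.87% of the 1740 ATF3-CPT peaks found in ATF3-KO. Counted from ATF3-Ctrl, where 650 peaks held the core, 130 were found in ATF3-KO, against 5.11% of all ATF3-Ctrl peaks.

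The reverse count was complete. All 130 ATF3-KO peaks with the core on these chromosomes overlapped an ATF3-Ctrl and an ATF3-CPT peak, whereas 81.8% and 82.8% of all ATF3-KO peaks did so.

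A member was found in ATF3-KO mostly where its level was high. In ATF3-CPT classes of under 10, 10 to 20, 20 to 40, and 40 and over, 0 of 216, 2 of 212, 23 of 274 (8.39%) and 112 of 287 (39.0%) were found, against 8.16% of all peaks and 1.57% of AP-1 peaks in the highest class. Over all peaks the lower classes had 0.671%, 2.34% and 4.66%, so members were not above all peaks under 20. By ATF3-Ctrl level, none of 137 members under 10 was found, and then 4.07%, 27.8% and 78.2% (79 of 101). Over all shared sites the ATF3-Ctrl classes below 40 had 1.54%, 4.28% and 12.9%, so here too members were not above them under 20. In the highest ATF3-Ctrl class the share was 52.1% for partial site peaks, 24.8% for all peaks and 4.2% for AP-1 peaks.

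Promoter and level were then held together. In promoters with at least 40 in ATF3-CPT, 46.5% of members (94 of 202, interval 39.8% to 53.4%) were found in ATF3-KO, close to 53.2% of partial site peaks (47.9% to 58.4%) and above 31.5% of all peaks and 6.93% of AP-1 peaks. Outside promoters the shares at this level were 21.2% of members (18 of 85, interval 13.8% to 31.0%), 5.84% of partial site peaks (3.68% to 9.16%), 3.02% of all peaks and 1.08% of AP-1 peaks. In promoters from 20 to 40 members were found less often, with 11.1% (7.38% to 16.4%) against 29.3% of partial site peaks (26.0% to 32.8%). They were also below all peaks in this class, with 18.1% (16.5% to 19.7%), but above AP-1 peaks, with 0.874%. In promoters from 10 to 20 the shares were 1.8% of members (0.496% to 6.33%) and 7.22% of all peaks (6.49% to 8.03%). Outside promoters the intervals of members and partial site peaks overlapped below 40, with 2.35% (0.648% to 8.18%) against 4.02% (2.59% to 6.19%) from 20 to 40.

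In ATF3-KO the found members had fewer tags than in ATF3-WT. Their median was 14.8 (quartiles 10.1 and 21.1), and the log2 ratio of ATF3-KO to ATF3-Ctrl had a median of -1.56 (quartiles -1.81 and -1.26, 136 sites), against -0.69 over all ATF3-CPT peaks found in both. The ratio was -1.42 for AP-1 peaks (73 sites) and -1.05 for partial site peaks (517 sites), so a fall of this kind was not particular to members. Over all peaks found in ATF3-KO the ATF3-KO median was 12.5, near that of members, while the ATF3-Ctrl medians were 23.9 and, for members, 46.7. The tags of ATF3-KO were fewer although they were counted over the wider window.

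The found members also changed less after CPT. The median log2 ratio of ATF3-CPT to ATF3-Ctrl was 0.39 at the 136 sites found in ATF3-KO and 1.13 at the 517 others, and 17.6% against 57.6% were at least 2-fold higher. Over all shared sites these medians were 0.13 and 0.90, and the shares 11.1% and 46.1%. Partial site peaks had medians of 0.18 and 0.53, whereas AP-1 peaks had 1.24 (73 sites) and 1.26. A smaller change at found sites was thus not particular to members. The found members and the other members differed in level too, with an ATF3-Ctrl median of 46.7 in the former. With at least 40 in ATF3-Ctrl the medians were 0.18 (79 sites) and 0.96 (22 sites), and from 20 to 40 they were 0.65 (47) and 1.14 (122), while from 10 to 20 the order turned, with 1.31 (10) and 1.11 (236). In promoters alone, with at least 40 in ATF3-Ctrl, they were 0.18 (66 sites, quartiles -0.07 and 0.43) and 0.78 (14 sites, quartiles 0.49 and 1.15).

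Of the 137, 117 lay in promoters (85.4%) and 20 outside. The promoter share was 67.6% of all ATF3-CPT peaks found in ATF3-KO and 89.0% of the partial site peaks found there. The 20 outside included 4 that shared a stretch of 20 bases, the core followed by cggaaggcgcgc. These were the FABP2 site, the CEP170 site, a site 104009 bp from CCDC201 and a site 121492 bp from FBXO28. Their levels in ATF3-CPT, ATF3-Ctrl and ATF3-KO were 113.9, 189.2 and 46.8 at FABP2, 100.9, 106.6 and 42.9 at CCDC201, 76.3, 116.6 and 28.1 at CEP170, and 58.2, 37.1 and 18.7 at FBXO28. These 4 were the only members with the stretch, all were in the 3 lists, and 3 of them were lower after CPT. Reads from such near-identical copies could be placed at any of them, so these values are uncertain. By ATF3-CPT level, the highest of the other distal sites found in ATF3-KO was a site 39265 bp from C2orf42 with 164.3, 54.1 and 10.1. TRMO, a tRNA methyltransferase gene, had 132.6, 51.0 and 9.4, with its peak in an intron 256 bp from the TSS.

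By genes, 649 protein-coding genes had a member within 2 kb of a TSS, 3.23% of 20090 annotated and 5.89% of the 11014 with any ATF3-CPT peak there. In the RefSeq promoter sequences of GRCh38, another build than that of the peaks, each a short stretch around a gene start, 1.85% of 35116 hold the core. Of the members, 89 lay near the TSS of 2 or more genes. Genes known to respond to cyclic AMP had a member in 9 of 23 (39.1%), the highest share among the 9 lists examined, and 20 of the 23 had some ATF3-CPT peak in the promoter. The others were 2 of 21 in the ATF/CREB family, 1 of 7 in the AP-1 family, 1 of 18 in the integrated stress response, 2 of 15 clock genes, 1 of 22 p53 targets, 2 of 14 feedback regulators of MAP kinases, none of 17 in the unfolded protein response and none of 18 genes that the study names. Several lists are short, and some genes stand in more than 1. The choice of members by the ATF/CRE core itself favours the cyclic AMP list, since the element is known from promoters of such genes. How many promoters of each list hold the core with or without a peak was not counted, so the rank says little about binding.

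The cyclic AMP genes with a member were ordered by level from DUSP1 down. DUSP1, a MAP kinase phosphatase gene, had 91.2 after CPT and 45.6 before, a ratio of 2.0 (interval 1.47 to 2.76). CCNA2, the gene of cyclin A2, had 65.3, 71.1 and, in ATF3-KO, 20.3, with no clear change (ratio 0.918, interval 0.686 to 1.23). SIK1, a salt-inducible kinase gene, had 46.6, 21.6 and 7.8, a ratio of 2.16 (1.37 to 3.46).

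CREM, a cyclic AMP response element modulator gene, had 31.1 in ATF3-CPT and was in neither other list. FOSB, an AP-1 subunit gene, had 30.4 and 18.5, and GEM, a small GTPase gene, 29.1 and 23.2. Each ratio had an interval that included 1 (0.983 to 2.8 and 0.774 to 2.07).

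VGF, a neuropeptide precursor gene, had 20.1 in ATF3-CPT and 9.4 in ATF3-KO and overlapped no ATF3-Ctrl peak, the only member of this kind. As counted above, every ATF3-KO peak that held the core overlapped an ATF3-Ctrl peak. The ATF3-KO peak at VGF thus either did not hold the core or also reached an ATF3-Ctrl peak beside the member. Whether the VGF core itself was bound in ATF3-KO and not in ATF3-Ctrl was therefore not shown. PER1, a clock gene, had 19.4 and 15.4, and NR4A2, an orphan nuclear receptor gene, 13.6 and 10.0. Of the 9, 7 overlapped an ATF3-Ctrl peak, 3 an ATF3-KO peak, and 2 were at least 2-fold higher after CPT. Over the 649 genes with a member these counts were 539, 149 and 224, and the 9 genes were near these shares.

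Of the other listed genes, PPM1D, a phosphatase gene and p53 target, had 36.9, 10.8 and 8.6, a ratio of ATF3-CPT to ATF3-Ctrl of 3.42 (interval 1.88 to 6.63). DUSP8, a MAP kinase phosphatase gene with 2 cores, had 116.5 and 38.6 (ratio 3.02, 2.19 to 4.21). PPP1R15A, which encodes the eIF2α phosphatase subunit GADD34, had 20.1 and 12.4, CREB3L2, an ATF/CREB family gene, 11.6 and 9.3, and DBP, a clock output gene, 7.8 and 10.0. The intervals of these 3 ratios all included 1. PPM1D and DUSP8 were above the median change of all shared sites, which is 0.86 on the log2 scale, with log2 ratios of 1.77 and 1.59.

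Few members overlapped p53 peaks, which came from a library of cells with wild-type p53 given CPT (p53-CPT) and one of p53-knockout cells given DMSO (p53-KO). Of the 989, 12 overlapped a p53-CPT peak (1.21%), near the 1.30% of all ATF3-CPT peaks, and none overlapped a p53-KO peak, which allows a share of up to 0.387%, near the 0.428% of all ATF3-CPT peaks.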

How the data were processed

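ATF3 was precipitated with 2 μg of antibody from HCT116 cells, and tags were aligned by the authors to hg19 with BWA 0.6.1. Peaks were called by the authors for each library on its own with HOMER 4.1 (findPeaks) at a false discovery rate of 0.001, requiring 4 times the local tags and a Poisson p of 1.00e-04 there, and the headers name no input control. Normalized tag counts were deposited as a signal scaled to 10000000 tags. The deposited score counts tags, is not adjusted for library size, and was used for alternatives. The deposited fraction of tags near the peak centre was used as a description.

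The core was searched in the GRCh37 sequence with pysam 0.24.0. Libraries were compared by peak overlap of at least 1 bp, keeping the overlapping peak with the most tags. TSS came from basic transcripts of protein-coding genes of GENCODE 44 mapped to GRCh37. Shares carry Wilson intervals, and ratios of single sites carry exact binomial intervals on tags that normalized counts give (within 0.1 of whole for 100.0% of values). The scripts were tested on simulated data. Named sites were the 10 highest members, the 5 largest increases and 5 largest decreases with at least 20 tags in both libraries together, the 5 highest not in ATF3-Ctrl, the 5 highest by ATF3-CPT level among those found in ATF3-KO, and those of listed genes. Sites near CEP170, CCDC201 and FBXO28 and the repeat they share were added after their values were seen. Members and lists were chosen with earlier results of these data known.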

Additional observations from a re-analysis of the deposited data

How the results depend on the processing

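Of the 26 alternatives, 14 left the value within its interval (for the number of members, within 1.5 times). Requiring a score of at least 20 in ATF3-CPT left 690 of the 989 members, with a promoter share of 67.8%, 87.1% found in ATF3-Ctrl (69.1% of all peaks) and 19.9% found in ATF3-KO (4.71% of all peaks). Counting the TSS of genes of every type gave a promoter share of 64.3%. The median log2 change of shared members was 1.12 by the score (1.00 over all shared sites), 0.13 after scaling to the median of all shared sites, and 0.85 at sites with a score of at least 20 in ATF3-Ctrl. The share at least 2-fold higher was 57.7% by the score and 6.13% after scaling, and 70.0% passed a 1.5-fold requirement. The share at least 2-fold lower was 5.67% after scaling and 1.23% at 1.5-fold. The direction of the median change was kept in each. An alternative chosen after seeing the data, ATF3-KO peaks cut to the ATF3-CPT width, gave 13.4% of members found in ATF3-KO. With 1 library per condition, no library could be left out. No paired analysis was possible because the labels carry no replicate numbers. Sites that missed the calling thresholds were not listed, and the ATF3-KO list, with 0.56% of tags in peaks, is limited most.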
